A study of Homo sapiens with 6 samples.

Results

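S100 proteins are small calcium sensors found in vertebrates. S100 proteins carry a pair of EF-hand loops, which bind calcium in most members though not in S100A10. Most form dimers, and binding of calcium exposes a surface that grips partner proteins such as annexins, myosin heavy chains and cytoskeletal linkers. In epithelial cancers several members are read as markers of cell state, among them S100A4, also called fibroblast-specific protein, S100A2, a keratinocyte and basal epithelial protein, and S100P, a protein of placenta and of several carcinomas. The RNA-seq counts of S100 genes were compared between control PC3 cells and PC3 cells overexpressing GCNT1, the glycosyltransferase that makes the core 2 branch of O-glycans. The genes were chosen by symbol, 9 in all, and 8 of them were among the 12703 genes analysed (S100A2, S100A3, S100A4, S100A6, S100A11, S100A13, S100A16 and S100P). S100A14 was not analysed here.

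The PC3 line was established from a bone metastasis of a prostate cancer. The 3 control libraries came from PC3 lines carrying negative-control lentiviral particles (Lenti-ORF control), and the 3 GCNT1 overexpression libraries from PC3 lines with stable lentiviral overexpression of GCNT1. The labels call the libraries biological replicates, and the sources used here do not say whether a line was a clone. The p values thus measure only the spread between the libraries of a group. A difference between control and overexpressing lines that did not come from GCNT1 cannot be told apart from its effect. Total counts were 12125672 to 12755888 in controls and 11392213 to 13825704 with overexpression. The deposited counts were scaled to CPM by library totals multiplied by TMM factors, and the groups were compared by the quasi-likelihood test of edgeR. The p values were adjusted over all genes by the Benjamini-Hochberg method. A gene is said to have risen or fallen where its adjusted p value was under 0.05, and to be differentially expressed where its absolute log2 fold change was also at least 0.58, the thresholds of the study.

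The targeted gene, GCNT1, had 9, 13 and 8 counts in the control libraries against 13, 16 and 35 in those overexpressing it, and rose by 0.98 on the log2 scale (SE 0.37, edgeR adjusted p = 0.0362). This call was lost without control replicate 1 (adjusted p = 0.0920), without control replicate 3 (0.0944) and without GCNT1 overexpression replicate 3, where the log2 fold change was 0.49 (edgeR adjusted p = 0.269). It was also lost in DESeq2 (0.98, adjusted p = 0.0821), and GCNT1 did not pass a filter of 10 counts in every library. Controls and overexpressing libraries separated on the first principal component (89.3% of the variance). Of the epithelial markers KRT8, KRT18, KRT19, EPCAM and CDH1, all 5 were among the genes analysed, with summed levels of 822 to 869 CPM in controls and 626 to 710 CPM with overexpression. Among them KRT19 (log2 fold change -0.68), KRT18 (-0.18) and CDH1 (-1.71) fell. Of 6 fibroblast markers 1 was analysed (COL1A1, 13.7 to 15.7 and 8.23 to 8.86 CPM), of 6 leukocyte markers 1 (CD68, 83.4 to 94.4 and 80.0 to 89.5 CPM) and of 4 endothelial markers 2. These 2 moved in opposite directions, PECAM1 from a mean of 1.77 to 4.43 CPM (log2 fold change 1.31) and KDR from 154 to 53.1 CPM (-1.53), and together had 148 to 166 and 47.7 to 63.4 CPM. The part of all these marker genes in the results on S100 genes was not tested. In these bulk libraries, fewer cells expressing a gene and less RNA per cell cannot be told apart.

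Of the 8 S100 genes, 3 were differentially expressed with GCNT1 overexpression: S100A2 and S100A4 were lower and S100P was higher. Over all genes 19.3% were differentially expressed, 8.28% higher and 11.1% lower. Without the minimum on the fold change, 5 of the 8 passed the test, with S100A6 joining the genes that fell and S100A11 joining S100P among those that rose, against 57.6% of all genes (28.3% higher and 29.3% lower). The share of S100 genes that passed the test alone was thus near that of all genes. The median log2 fold change of the 8 genes was -0.20 against 0.00 for all genes. The groups did not overlap in 3 S100 genes that were higher and in 3 that were lower, beside 62.5% of all genes.

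The promoters of the 3 differentially expressed genes are shown because these are the S100 genes whose expression moved past both thresholds. Each sequence is the RefSeq stretch of 300 bases on GRCh38.p14 from 250 bases before the transcription start to 50 bases after it, read along the gene's strand. Capitals mark a TATA box (TATAAA, searched on the gene's strand), an AP-1 site (TGANTCA), a GC box (GGGCGG) or an E-box of the kind bound by SNAI and ZEB repressors (CACCTG), the last 3 searched on both strands and none of them overlapping another kind here.
S100A2 (chr1:153565795-153566094, minus strand): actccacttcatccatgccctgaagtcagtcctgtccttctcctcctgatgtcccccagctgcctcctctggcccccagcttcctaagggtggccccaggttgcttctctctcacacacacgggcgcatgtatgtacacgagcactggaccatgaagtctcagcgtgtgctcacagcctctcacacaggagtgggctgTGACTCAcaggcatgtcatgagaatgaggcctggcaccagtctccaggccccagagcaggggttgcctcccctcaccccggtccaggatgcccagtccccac
S100A4 (chr1:153545757-153546056, minus strand): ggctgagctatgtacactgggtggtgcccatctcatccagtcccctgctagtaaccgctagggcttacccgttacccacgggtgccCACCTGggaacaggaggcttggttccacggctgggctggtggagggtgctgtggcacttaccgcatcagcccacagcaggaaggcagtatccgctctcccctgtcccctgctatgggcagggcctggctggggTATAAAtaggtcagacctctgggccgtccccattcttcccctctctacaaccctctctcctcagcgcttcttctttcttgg
S100P (chr4:6693628-6693927, plus strand): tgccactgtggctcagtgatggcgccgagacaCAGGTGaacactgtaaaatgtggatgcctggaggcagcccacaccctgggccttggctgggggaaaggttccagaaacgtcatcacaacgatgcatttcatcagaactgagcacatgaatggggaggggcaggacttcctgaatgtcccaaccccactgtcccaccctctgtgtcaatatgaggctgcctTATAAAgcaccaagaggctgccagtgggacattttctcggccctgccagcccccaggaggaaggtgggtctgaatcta
The S100A2 window held an AP-1 site beginning 52 bases before the start, a match found in 7.71% of all 35116 RefSeq promoter windows of this length. S100A4 held a TATA box beginning 31 bases before the start and an E-box beginning 164 bases before it. S100P likewise held a TATA box, 28 bases before the start, and an E-box, written CAGGTG on this strand, 218 bases before it. A TATA box was present in 7.33% and such an E-box in 20.6% of all windows. The 3 windows held no GC box, which 45% of all windows had. The same motifs stood in windows of the other S100 genes: S100A3 held an AP-1 site and a GC box, S100A6 3 GC boxes and S100A11 1. Of the windows of S100A16, the first held 2 E-boxes and the other 1 E-box and 1 GC box, and among those of S100A13 there was a GC box in 1 and a TATA box in another. The second RefSeq start of S100A2 (chr1:153563838-153564137) held no AP-1 site and an E-box beginning 18 bases before the start. These matches describe the letters only.

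S100A2, S100A3, S100A4, S100A6, S100A16 and S100A13 lie on the minus strand of chromosome 1 within 96.8 kb (hg38, 153534599 to 153631360), in the S100 cluster of the epidermal differentiation complex. S100A11 lies 1487 kb nearer the centromere (152032506 to 152047907), and S100P lies apart on chromosome 4 (6693878 to 6697170, plus strand).

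S100A4 (153543613 to 153550136) encodes a protein that binds non-muscle myosin IIA and loosens its filaments, and is widely used as a mesenchymal marker. Its normalised level was 26.0, 23.9 and 29.4 CPM in control libraries 1 to 3 and 16.5, 15.6 and 17.0 CPM in GCNT1 overexpression libraries 1 to 3. Every overexpressing library was below every control library. The mean fell from 26.5 ± 2.78 to 16.4 ± 0.726 CPM (mean ± SD, n = 3 per group), to 0.619 of the control mean, a log2 fold change of -0.69 (SE 0.09, edgeR adjusted p = 2.80e-05).

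S100A2 (153561108 to 153567890) encodes a mainly nuclear S100 protein known from basal epithelial cells. It had 33.6, 29.6 and 33.8 CPM in controls and 19.9, 20.3 and 19.3 CPM with overexpression. Here too the groups were apart. The coefficient of variation was 7.38% in controls and 2.43% with overexpression, where counting error alone gives 5.02% and 6.19%. The mean fell from 32.3 ± 2.38 to 19.8 ± 0.482 CPM (mean ± SD, n = 3 per group), to 0.614 of the control mean, a log2 fold change of -0.70 (SE 0.08, adjusted p = 6.43e-06 from the same edgeR test).

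S100A3 (153547329 to 153549258) lies inside the annotated span of S100A4, on the same strand and with no exon shared, and encodes a protein best known from the hair cuticle. It had 61, 59 and 64 counts in controls and 56, 56 and 49 counts with overexpression, or 4.85, 4.74 and 5.41 CPM against 4.84, 4.08 and 3.47 CPM. The groups overlapped. The log2 fold change was -0.29 with a 95% interval from -0.63 to 0.06 (SE 0.16, adjusted p = 0.142 in edgeR's test), an interval that holds 0 and ends short of the values of S100A2 and S100A4.

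Ratios of raw counts within a library do not depend on the scaling between libraries, and 4 pairs were compared after the values had been seen. The ratio of S100A4 to S100A2 was 0.773, 0.810 and 0.872 in controls and 0.830, 0.767 and 0.879 with overexpression, a difference of 0.01 in mean log2 ratio (exact two-sided permutation p = 0.800, adjusted over the 4 pairs p = 0.800). The 2 groups of ratios overlapped. Relative to S100A3 the difference in mean log2 ratio was -0.40 for S100A4 and -0.41 for S100A2, with groups that did not overlap in either (exact permutation p = 0.10 and adjusted p = 0.133 for each). For 3 libraries against 3 a p value of 0.10 is the smallest this test allows.

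S100A6 (153534599 to 153536244), or calcyclin, is an abundant protein of proliferating cells that binds annexins and the calcyclin-binding protein CACYBP. Its level was 795, 781 and 790 CPM in controls and 617, 588 and 584 CPM with overexpression. The coefficient of variation of the controls was 0.952%, where counting error alone gives 1.02%. All overexpressing libraries were below every control. S100A6 fell from 789 ± 7.51 to 596 ± 18.2 CPM (mean ± SD, n = 3 per group), with a log2 fold change of -0.40 (SE 0.04, adjusted p = 2.85e-06 from edgeR's test), under the fold change threshold.

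S100A11, or calgizzarin, pairs with annexin A1 and takes part in membrane repair and keratinocyte growth control. It had 159, 172 and 188 CPM in controls and 248, 208 and 222 CPM with overexpression. S100A11 thus moved against S100A6, with groups that again did not overlap. The mean rose from 173 ± 14.7 to 226 ± 20.2 CPM (mean ± SD, n = 3 per group), with a log2 fold change of 0.38 (SE 0.07, adjusted p = 0.000492 from edgeR's test), also under the fold change threshold. The count ratio of S100A11 to S100A6 was 0.200, 0.221 and 0.238 in controls and 0.402, 0.354 and 0.381 with overexpression, a difference of 0.79 in mean log2 ratio (exact permutation p = 0.10, adjusted p = 0.133).

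S100P, first found in placenta, binds ezrin and IQGAP1 and acts on the receptor RAGE from outside the cell. It was the least abundant S100 gene in controls, with 30, 20 and 19 counts, against 32, 50 and 45 counts with overexpression. In CPM these were 2.38, 1.61 and 1.61 against 2.77, 3.64 and 3.19. The lowest overexpressing library lay just above the highest control. S100P rose from 1.87 ± 0.449 to 3.20 ± 0.438 CPM (mean ± SD, n = 3 per group), with a log2 fold change of 0.78 with a 95% interval from 0.31 to 1.24 (SE 0.22, adjusted p = 0.00740 from edgeR's test). The coefficient of variation was 24.0% in controls and 13.7% with overexpression, where counting error alone gives 20.9% and 15.4%.

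S100A16 and S100A13 did not pass the test. S100A16 (153606886 to 153613145), a widely expressed member with a role in adipocyte differentiation, had 610, 649 and 707 CPM in controls and 652, 570 and 585 CPM with overexpression. These groups overlapped, and the log2 fold change was -0.12 (95% interval -0.25 to 0.01, SE 0.06, adjusted p = 0.109). S100A13 (153618787 to 153631360), which helps export FGF1 and interleukin 1 alpha without a signal peptide, had 67.6, 67.0 and 66.6 CPM in controls and 72.8, 68.9 and 77.2 CPM with overexpression. Its groups did not overlap, but the log2 fold change was 0.12 (95% interval -0.01 to 0.25, SE 0.06, adjusted p = 0.0922). S100A16 passed the test without GCNT1 overexpression replicate 1 (log2 fold change -0.18, adjusted p = 0.00772 from edgeR's test) and without control replicate 1 (-0.16, adjusted p = 0.0435 from edgeR's test). S100A13 passed it without GCNT1 overexpression replicate 2 (0.17, adjusted p = 0.0410 from edgeR's test) and with library size in place of TMM (0.18, adjusted p = 0.0182). Counts of S100A13 are also uncertain because 235 bp of its exons overlap S100A1 on the opposite strand and 37.5% of the 75-base windows of its canonical transcript are shared with the long non-coding gene ENSG00000271853. For the other 7 genes no such window was found in the annotated transcript of another gene.

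**Figure D1:**
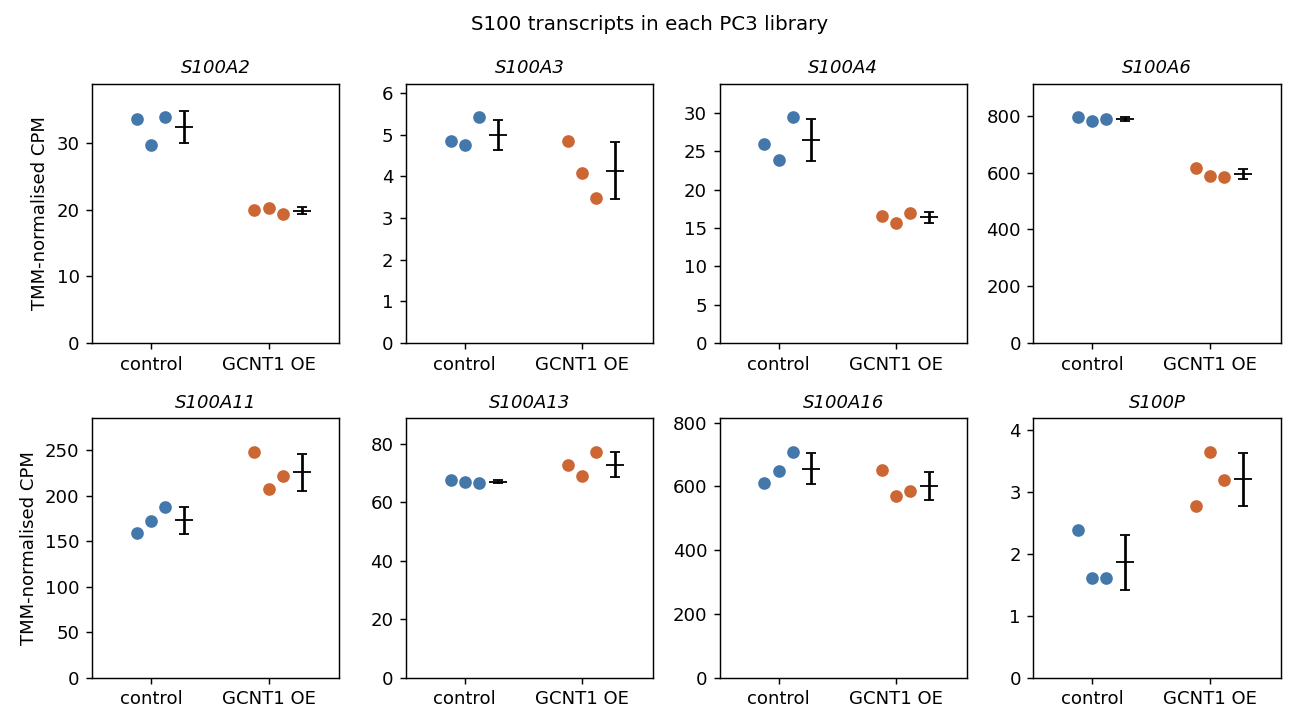
TMM-normalised CPM of the 8 S100 genes in the 3 control (blue) and 3 GCNT1 overexpression (orange) PC3 libraries; each point is 1 library in the order 1 to 3, the black bar gives the mean ± SD, and each panel has its own axis from 0. S100A2, S100A4 and S100A6 lie lower and S100A11 and S100P higher in all 3 overexpressing libraries, while S100A3 and S100A16 overlap.

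The calls at the fold change threshold were narrow. When the same counts were tested in edgeR against a log2 fold change of 0.58 rather than against 0 (glmTreat), none of the 8 genes passed: the p values were 0.0213 for S100A2, 0.0406 for S100A4 and 0.0680 for S100P, and after Benjamini-Hochberg adjustment 0.164, 0.286 and 0.439. The 95% intervals of S100A2 (-0.87 to -0.53) and S100A4 (-0.89 to -0.49) spanned the threshold, so each gene differed from the control but was not shown to differ by more than 0.58.

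The change of each gene was set against that of its genomic neighbourhood. Around S100A2, S100A3, S100A4, S100A6, S100A16 and S100A13 the median log2 fold change over the 50 nearest analysed genes was -0.06, and around S100A11 it was -0.04. Relative to these medians the difference was -0.65 for S100A2, -0.63 for S100A4, -0.35 for S100A6 and 0.42 for S100A11 on the log2 scale, given without a test. S100P lay where the median of the 50 nearest genes was 0.30, and relative to it the difference was 0.48, under the fold change threshold. The part of this neighbourhood in the rise of S100P was not tested. Between S100A11 and S100A13 only 1 analysed gene was not of the S100 family, the long non-coding CCDST, which had 0, 1 and 1 counts in controls and 38, 47 and 42 counts with overexpression (adjusted p = 1.54e-07 from edgeR's test).

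**Figure D2:**
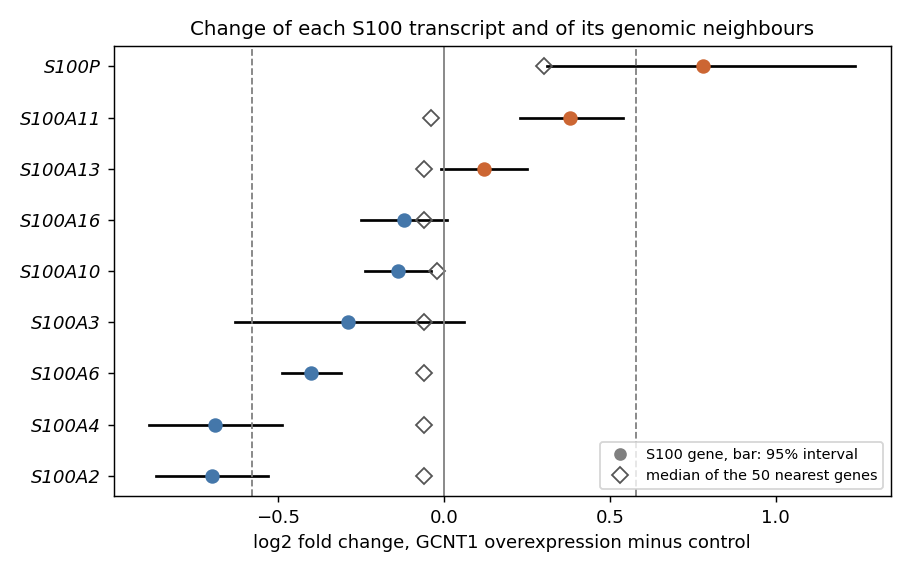
Log2 fold change (GCNT1 overexpression minus control) of the 8 S100 genes and of S100A10, with 95% intervals as bars; open diamonds give the median of the 50 nearest analysed genes, dashed lines the thresholds of -0.58 and 0.58. S100A2 and S100A4 lie past the lower line and far from their neighbours' median of -0.06, whereas the neighbours of S100P have a median of 0.30.

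S100A10 (p11), the partner of annexin A2 at the plasma membrane, was not among the chosen genes but was the only 1 of 11 further S100 genes looked for that was analysed. It lies next to S100A11 and had 3530, 3497 and 3565 counts in controls and 3023, 3598 and 3643 counts with overexpression. After scaling it fell from 288 ± 12.1 to 260 ± 1.98 CPM (mean ± SD, n = 3 per group), with a log2 fold change of -0.14 (SE 0.05, adjusted p = 0.0171 from edgeR's test), which was -0.09 (adjusted p = 0.117) with library size in place of TMM and -0.14 (adjusted p = 0.0656) in a fit blocked on replicate number. It also missed the threshold without control replicate 3 (adjusted p = 0.0708 from edgeR's test) and without GCNT1 overexpression replicate 3 (adjusted p = 0.0700 from edgeR's test). Neighbouring S100A10 and S100A11 thus had log2 fold changes of opposite sign. No gene of the fused-type S100 family (FLG, HRNR, TCHH and relatives) was analysed here.

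Levels were compared between genes per kb of exon, taken as the union of all annotated exons. The longest transcript is shorter, 1172 against 1701 bp for S100A16, 563 against 649 bp for S100A11 and 755 against 946 bp for S100A4. For S100A13 it is 2184 against 2216 bp. Which neighbours in the order overlap thus depends on the length used, and the ranges below hold for the union of exons. In controls S100A6 was highest with 812 ± 7.73 CPM per kb (SD, n = 3), place 14 of 12559 genes with a length, followed by S100A16 (385 ± 28.7) and S100A11 (267 ± 22.7), places 36 and 73. S100A13 (30.3 ± 0.239) and S100A4 (28 ± 2.94) came next with overlapping ranges, then S100A2 (20.9 ± 1.54), S100A3 (5.94 ± 0.431) and S100P (3.96 ± 0.953). With overexpression S100A6 (614 ± 18.7) remained highest, but S100A16 (354 ± 25.8) and S100A11 (348 ± 31.1) now overlapped. The ranges of S100A13 (32.9 ± 1.88) and S100A4 (17.3 ± 0.767) no longer did, and S100P (6.79 ± 0.929) stood above S100A3 (4.91 ± 0.814). S100A4 went from place 1671 to place 2755 among all genes and S100A2 from place 2294 to place 3593.

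**Figure D3:**
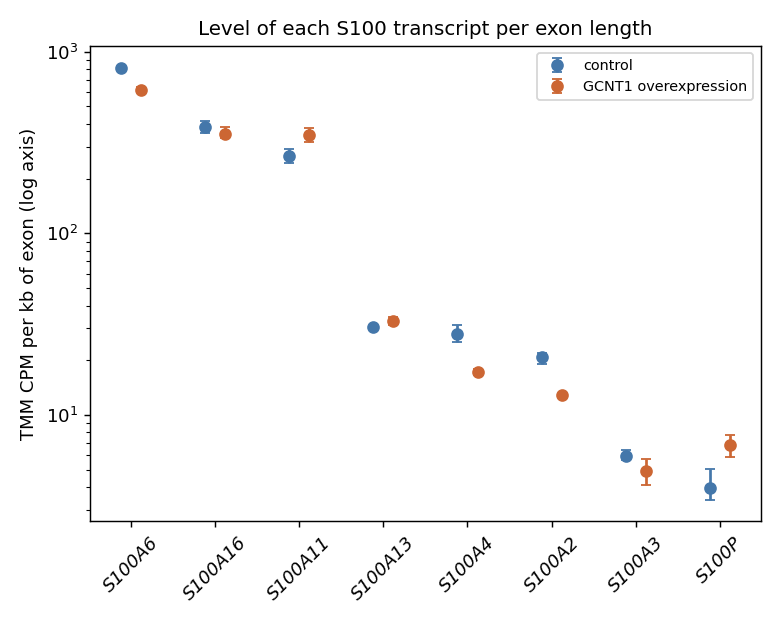
Mean TMM CPM per kb of exon (union of annotated exons, log axis) of each S100 gene in control (blue) and GCNT1 overexpressing (orange) libraries, with bars from the lowest to the highest of 3 libraries. S100A6, S100A16 and S100A11 stand well above the rest, and S100A16 and S100A11 meet at 354 and 348 with overexpression.

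The summed level of the S100 genes and the share of each gene were compared by exact permutation. With 3 libraries against 3 its smallest p value, 0.10, cannot pass the threshold. The summed level of the 8 genes was 1698, 1729 and 1822 CPM in controls and 1634, 1478 and 1511 CPM with overexpression. The groups did not overlap, and the mean was 1750 ± 64.3 against 1541 ± 82.1 CPM (mean ± SD, n = 3 per group), a ratio of 0.881 (exact two-sided permutation p = 0.10). A lower sum was not particular to S100 genes. Annexins summed to 4540 to 4732 CPM in controls against 4059 to 4244 with overexpression, and S100 partner genes to 4345 to 4592 against 3937 to 4160. Other EF-hand genes (6826 to 6977 against 6454 to 6638) and calcium transport genes (1904 to 2015 against 1702 to 1809) were lower too. S100A6 took 46.8%, 45.2% and 43.4% of the S100 reads in controls and 37.8%, 39.8% and 38.6% with overexpression. S100A11 took 9.36%, 9.97% and 10.3% against 15.2%, 14.1% and 14.7%. The difference in mean share was thus -6.40 percentage points for S100A6 and 4.76 points for S100A11. S100A2 went from 1.85% to 1.29%, S100A4 from 1.51% to 1.06%, S100A13 from 3.84% to 4.74% and S100P from 0.107% to 0.209%. With reads per kb of exon the difference was 7.83 points for S100A11, 0.420 for S100A13, 0.672 for S100A16, -0.0304 for S100A3 and 0.235 for S100P. In the shares of reads, the groups of S100A2, S100A4, S100A6, S100A11, S100A13 and S100P did not overlap (exact permutation p = 0.10 and Benjamini-Hochberg adjusted p = 0.133 for each, so that none could pass the threshold). S100A16 with 37.4% and 39.1% (exact p = 0.300) and S100A3 with 0.286% and 0.267% (exact p = 0.600) overlapped, with differences of 1.66 and -0.0183 points. Shares within a library depend on each other, so a share can rise without a rise in level, as for S100A16.

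**Figure D4:**
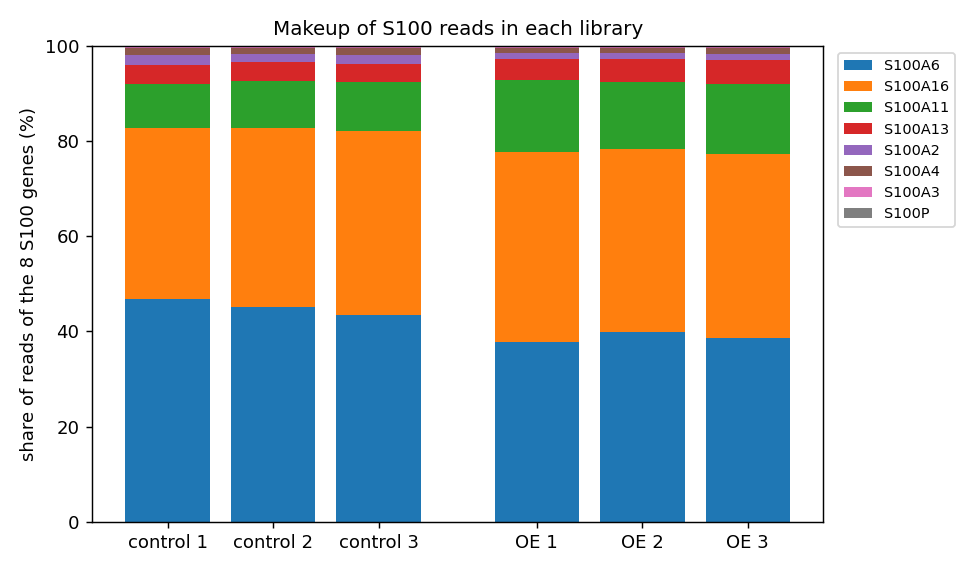
Share of the reads of the 8 S100 genes taken by each gene (%), stacked to 100% for each of the 3 control and 3 GCNT1 overexpression (OE) libraries. The S100A6 segment shrinks from a mean of 45.1% to 38.7% and the S100A11 segment grows from 9.89% to 14.6%.

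Transcripts of genes whose proteins are known to bind S100 proteins were compared next. Of 17 partner genes looked for 14 were analysed, 5 rose and 5 fell, with a median log2 fold change of -0.04. These counts stand beside the 28.3% of all genes that rose and the 29.3% that fell. MYH9, the heavy chain of non-muscle myosin IIA bound by S100A4, fell from 932 ± 52.7 to 593 ± 30.3 CPM (log2 fold change -0.65, SE 0.05, adjusted p = 3.08e-07 from edgeR's test). FGF1, a growth factor exported with S100A13, rose from 4.34 ± 0.862 to 8.49 ± 0.749 CPM (log2 fold change 0.97, SE 0.15, adjusted p = 0.000122 from edgeR's test). These 2 were the differentially expressed partners. The S100P partner EZR fell (-0.48) and IQGAP1 rose (0.19), and the S100A6 partner CACYBP fell (-0.21). PPFIBP1, a liprin bound by S100A4, rose (0.41). The receptor genes AGER (RAGE) and TLR4 were not among the genes analysed.

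Annexins are calcium-dependent membrane-binding proteins that S100 dimers link together. Of 12 looked for 9 were analysed, 3 rose and 3 fell, and the median log2 fold change was -0.00. The 6 that passed the test stand beside 57.6% of all genes. ANXA10, an annexin of the gastric mucosa, was the only differentially expressed annexin and fell from 31.2 ± 3.29 to 10.8 ± 0.800 CPM (log2 fold change -1.54, SE 0.10, adjusted p = 3.63e-08 from edgeR's test). ANXA1, the partner of S100A11, rose from 172 ± 3.02 to 231 ± 3.37 CPM (log2 fold change 0.42, SE 0.04, adjusted p = 3.70e-06 from edgeR's test). ANXA2, the partner of S100A10, fell from 1831 ± 42.5 to 1399 ± 61.3 CPM (log2 fold change -0.39, SE 0.04, adjusted p = 6.76e-06 from edgeR's test). ANXA1 thus had the direction of S100A11 and ANXA2 that of S100A10 and S100A6. ANXA6 also fell (-0.57), whereas ANXA11, which binds S100A6, had 634 ± 41.7 and 632 ± 29.2 CPM (adjusted p = 0.953 from edgeR's test).

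Of 28 EF-hand genes outside the S100 family 27 were analysed, 10 rose and 9 fell, with a median log2 fold change of 0.07, where 57.6% of all genes passed the test (28.3% higher and 29.3% lower). PDCD6, an adaptor in membrane repair and vesicle coats, fell to 0.493 of its control mean (log2 fold change -1.02, SE 0.05, adjusted p = 3.86e-09 from edgeR's test). EFHD2 (0.67) and CALML4 (0.62) were the differentially expressed genes that rose. Of 17 genes of calcium transport 16 were analysed, 3 rose and 7 fell, with a median of -0.15, and the 10 that passed the test were a share near the 57.6% of all genes. The store release channel ITPR1 fell from 80.5 ± 7.82 to 37.1 ± 5.53 CPM (log2 fold change -1.11, SE 0.10, adjusted p = 7.47e-07 from edgeR's test), and the pump ATP2A3 fell from 32, 48 and 34 counts in controls to 5, 10 and 6 counts with overexpression (log2 fold change -2.52, SE 0.30, adjusted p = 1.03e-05 from edgeR's test). The entry channel ORAI1 rose (0.39).

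**Figure D5:**
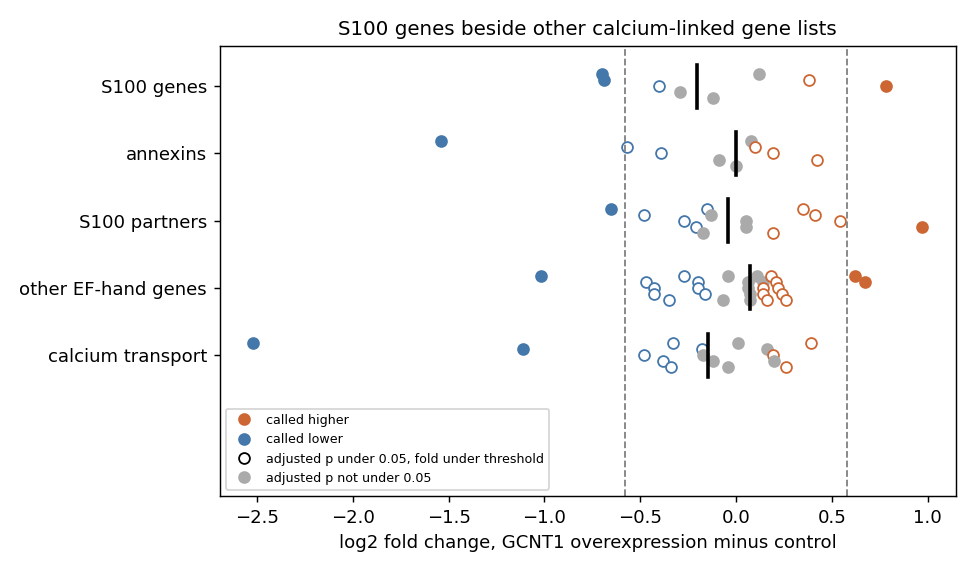
Log2 fold change (GCNT1 overexpression minus control) of each analysed gene of the S100, annexin, S100 partner, other EF-hand and calcium transport lists; filled colours mark genes past both thresholds, open circles those past the adjusted p value alone, grey those past neither, black bars the medians and dashed lines -0.58 and 0.58. The medians run from -0.20 for the 8 S100 genes to 0.07 for the other EF-hand genes, and each list holds genes on both sides of 0.

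For each differentially expressed S100 gene the genes with the most similar profile over the 6 libraries were found by the root mean square difference of centred log2 CPM. Those nearest to S100A2 were PDE6D (0.036), RHOBTB1 (0.038) and FABP5 (0.042), and those nearest to S100A4 were RFX2 (0.041), PLXNC1 (0.046) and COPS8 (0.053). FAM185A (0.068), DNAJC22 (0.070) and HPGD (0.075) were nearest to S100P, at larger distances. No S100 gene was among them. With 3 libraries against 3 such a profile is mostly the step between the groups, so genes with a similar fold change come out nearest. Their log2 fold changes were -0.74 to -0.64 near S100A2 and S100A4 and 0.66 to 0.71 near S100P. No chance level was worked out, and shared regulation was not tested.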

How the data were processed

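RNA of 3 control and 3 GCNT1 overexpressing PC3 lines was made into TruSeq stranded mRNA libraries. The single reads were 75 bp long. The authors used Cutadapt for trimming, HISAT2 for alignment to hg38 and featureCounts for counting, in Galaxy 22.01, and deposited raw counts per gene and library. The annotation, the strand setting and the low-count filter are not given in the sources used here. The third-highest library of every gene had 1.01 CPM or more by raw library totals. How reads shared between genes were counted is not given either, which bears on overlapping genes such as S100A13. The authors tested the counts with limma-voom.

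Groups and replicate numbers came from the sample labels. Libraries of a group differed by more than sampling noise (chi-square per degree of freedom 1.65 to 5.61). All tests on counts used edgeR 4.0.16 under R 4.3.3 (filterByExpr, which kept all 12703 genes, TMM, quasi-likelihood fit of the 2 groups, Benjamini-Hochberg adjustment). SEs are the absolute log2 fold change divided by the root of the F statistic. Of the genes, 12661 were matched to a symbol through RefSeq and 12559 placed by GENCODE 44 (GRCh38), which also gave exon lengths. Promoters came from RefSeq (GRCh38.p14). Alternatives were limma-voom (limma 3.58.1), DESeq2 1.42.0, RLE factors, library size, 3 filters, glmTreat, the replicate number as a block, and leaving out each library. The test was checked on simulated counts. The 3 counts that limit detection are 0.217 to 0.263 CPM by raw library totals, without TMM factors, which covers counting error only.

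Named genes were all chosen S100 genes, every other S100 gene analysed, in each list up to 4 differentially expressed genes by adjusted p and the ends of its range, the called gene between S100A11 and S100A13, the nearest profiles, and GCNT1. Further list genes (partners named beside their S100 gene, ANXA2, ANXA6 and ANXA11), the 4 count ratios and the promoter motifs were chosen after the values were seen. The S100 genes and lists were chosen with earlier results of these data known. Some listed genes are not reported here.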

Additional observations from a re-analysis of the deposited data

How the results depend on the processing

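The calls of S100A2, S100A4 and S100P kept their direction and stayed past both thresholds in all 14 alternatives that test against 0: limma-voom, DESeq2, RLE factors, library size alone, 3 filters, the replicate block and each of 6 libraries left out. Their log2 fold changes ran from -0.76 to -0.64, from -0.76 to -0.61 and from 0.68 to 1.00. The test against 0.58 (glmTreat) called 0 of the 8 genes and 1392 of all genes, against 2457 in the test against 0. At an adjusted p under 0.05 alone, 5 or 6 of the 8 genes passed. S100A13 passed with library size alone (0.18, adjusted p = 0.0182 from edgeR's test). S100A10, which was under the fold change threshold throughout, no longer passed the adjusted p with library size alone, with the replicate block, without control replicate 3 (-0.11) and without GCNT1 overexpression replicate 3 (-0.14), and the cause was not tested. GCNT1 lost its call under DESeq2 (0.98, adjusted p = 0.0821) and in 3 of 6 fits with a library left out.

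With the replicate number as a block 3 S100 genes and 2423 of all genes were called, and the block changed no call among the 8 chosen S100 genes. Deviations of same-numbered libraries correlated at -0.273, -0.0024 and -0.109, and 0 of 6 libraries correlated best with its own number. No pairing by number was thus seen, though with 3 libraries per group this cannot exclude that libraries were handled together by number. With reads per kb, the change in share was -0.421 points for S100A2, -0.553 for S100A4, -8.16 for S100A6, 7.83 for S100A11, 0.420 for S100A13 and 0.235 for S100P, which follows from their lengths. With library size alone the neighbours' median was 0.00 around S100A2, S100A3, S100A4 and S100A6, -0.00 around S100A13 and S100A16, 0.02 around S100A11 and 0.36 around S100P; this scaling moved the median of all genes by 0.0578. With 25 neighbours it was 0.05 for S100A11 and -0.12 for S100A13, and with 100 it was 0.27 for S100P. The annexins called numbered 1 to 2 with each library left out, and 1 gene of calcium transport was called with at least 10 counts in every library, a filter that ATP2A3, with 5 to 10 counts under overexpression, did not pass.

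Counts per library were lowest, among the 8 S100 genes, for S100P (19 to 50) and S100A3 (49 to 64).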
